A study of Mus musculus with 2 samples.

Results

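Mir149 is the microRNA gene of the first intron of Gpc1, and it is 1 of 1973 microRNA genes counted in hindbrain of B6NCrl mouse embryos. It was chosen by its level, its rank and its spread between the 2 libraries, so those values are given as a description and no test was run on them. The hindbrain came from embryos of both sexes at 16.5 days of development, and nothing in the labels sets 1 library apart by genotype or treatment. Replicate 1 and replicate 2 are separate pools of embryos with a library each, and replicate 2 was pooled from 37 embryos, while the number behind replicate 1 is not given in the sources used here. Because whole tissue was pooled, the cells that made Mir149 are not resolved, and fewer cells of a type cannot be told apart from less RNA per cell.

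MicroRNAs are short RNAs cut from a hairpin, and an Argonaute protein uses one strand of the hairpin to find partly complementary messenger RNAs and lower their output. Pairing of the seed, the bases near the 5′ end of the microRNA, is the main part of this recognition. Glypican-1, the protein of the host gene Gpc1, is a heparan sulfate proteoglycan anchored to the outer face of the cell membrane, where it binds growth factors, and it is made in the developing brain. A microRNA inside an intron on the strand of its host can be cut from the host's transcript, although many intronic microRNAs also have a start of their own. miR-149 is counted among the microRNAs enriched in brain.

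The sequences of Mir149 are printed because its counts below are reads assigned to this gene. In the hairpin the capitals are the 2 mature arms, and in each arm the capitals are the seed, bases 2 to 8 (RefSeq, GRCm38.p6, plus strand of chromosome 1).
Mir149 hairpin, chr1:92850378-92850443: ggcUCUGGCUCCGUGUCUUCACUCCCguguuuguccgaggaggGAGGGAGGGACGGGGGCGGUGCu
miR-149-5p, chr1:92850381-92850403: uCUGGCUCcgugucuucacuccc
miR-149-3p, chr1:92850421-92850442: gAGGGAGGgacgggggcggugc

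The arms differ in composition. The 5p arm is rich in pyrimidines, with 10 C and 8 U among its 23 bases, while the 3p arm has 15 G among its 22. The deposited tables count reads per gene, so the share of each arm in the values below is not known.

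Mir149 (ENSMUSG00000065470.1) lies on the plus strand of chromosome 1 (mm10, 92850378 to 92850443). Gpc1 (ENSMUSG00000034220.7, 92831645 to 92860779) is read from the same strand. In transcript Gpc1-201, which has 9 exons, the hairpin lies in intron 1, 18280 bases after exon 1 and 2903 bases before exon 2. That intron is 21249 bases long and makes up most of the 29135 bases of the gene.

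**Figure D1:**
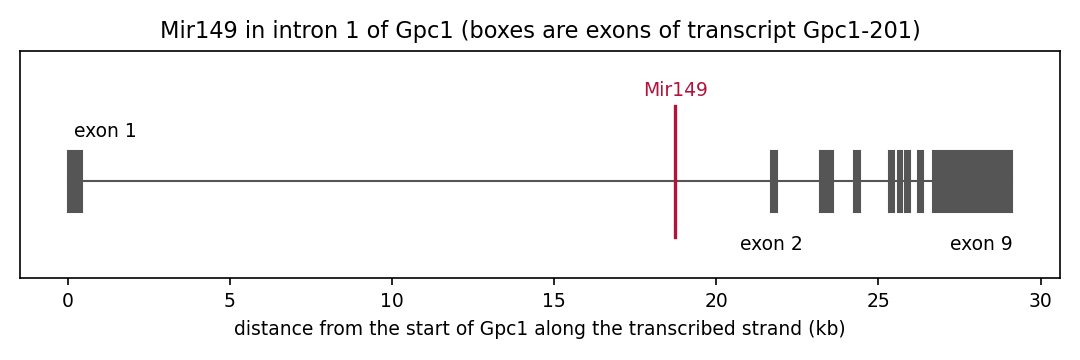
Map of Gpc1 drawn to scale, with distance from the start of the gene in kilobases along the transcribed strand. Boxes are the 9 exons of transcript Gpc1-201 and the red line is Mir149, which lies in the 21249-base first intron nearer to exon 2 than to exon 1.

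Mir149 had 93653 sense counts in replicate 1 and 87859 in replicate 2. Scaled to the sense total of each library, as CPM, these were 18373 CPM in replicate 1 (exact binomial 95% interval 18257 to 18490) and 19696 CPM in replicate 2 (19567 to 19825). The mean was 19035 ± 935 CPM (SD, n = 2), or 1.90% ± 0.0935 of all sense counts. About 1 sense count in 54.4 belonged to Mir149 in replicate 1 and 1 in 50.8 in replicate 2. The 2 intervals do not overlap. They cover the counting of reads alone and treat each read as an independent draw. PCR copies of 1 molecule were not told apart, so the true counting error may be larger than the intervals. Whether the gap between the libraries is wider than that error is not known.

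The reads lay on 1 strand. The opposite strand of Mir149 held 0 counts in both libraries, which allows up to 0.00320% of the sense count in replicate 1 and 0.00341% in replicate 2. The unstranded count of Mir149 was therefore the same as its sense count.

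By mean level Mir149 was the 12th of the 1973 genes, with rank 12 in replicate 1 and rank 11 in replicate 2. The 11 genes above it held 57.2% of the sense counts. Its mean was 127-fold the median of the 385 detected genes, those with 10 counts or more in each library, which was 150.2 CPM. The libraries held 5097205 and 4460836 sense counts, and multimapping reads, 34.5% and 35.1% of all reads, stand in a summary line and belong to no gene. Genes whose mature sequence is shared between loci lose reads this way, so the rank and the fold hold for assigned reads alone. How far these reads would change the rank was not tested. Mir149 made up 0.850% of all reads in replicate 1 and 0.903% in replicate 2.

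The neighbours in level were mostly microRNAs of larger families. Mir99b, of the miR-99/100 family, was the nearest in the order. In replicate 1 Mir149 had 18373 CPM, against 19705 CPM for Mir99b. In replicate 2 Mir149 had 19696 CPM, against 18798 CPM for Mir99b, so the pair changed places. The log2 ratio of Mir149 over Mir99b was -0.02 ± 0.12 (SD, n = 2).

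Mir30e, of the miR-30 family and in an intron of Nfyc, came next below Mir149. In replicate 1 the genes were almost level, with 93653 counts for Mir149 and 93550 for Mir30e. In replicate 2 they stood apart, with 87859 counts for Mir149 and 69102 for Mir30e. The log2 ratio of Mir149 over Mir30e was 0.17 ± 0.24 (SD, n = 2).

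A gene was called separated from Mir149 when the log2 ratio of Mir149 over that gene did not change sign between the libraries and its mean lay more than 2 SD from 0. This is a loose limit on 2 libraries and carries no p-value, since a sign-flip test cannot go below p = 0.5 here (exact, n = 2). Of the 384 other detected genes, 9 were separated as higher than Mir149, which is 2.34%, and 370 as lower, which is 96.4%. The other 5 were not separated, namely Mir130a, Mir99b, Mir30e, Mir26b and Mir17. Of these, Mir130a lay above Mir149 in both libraries, and Mir30e, Mir26b and Mir17 lay below it in both, but within 2 SD. Mir99b alone changed sides. Mir126a, of endothelial cells, was separated from Mir149 at a log2 ratio of Mir149 over Mir126a of -0.57 ± 0.01, and Mir181c at 0.62 ± 0.03 (SD, n = 2).

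**Figure D2:**
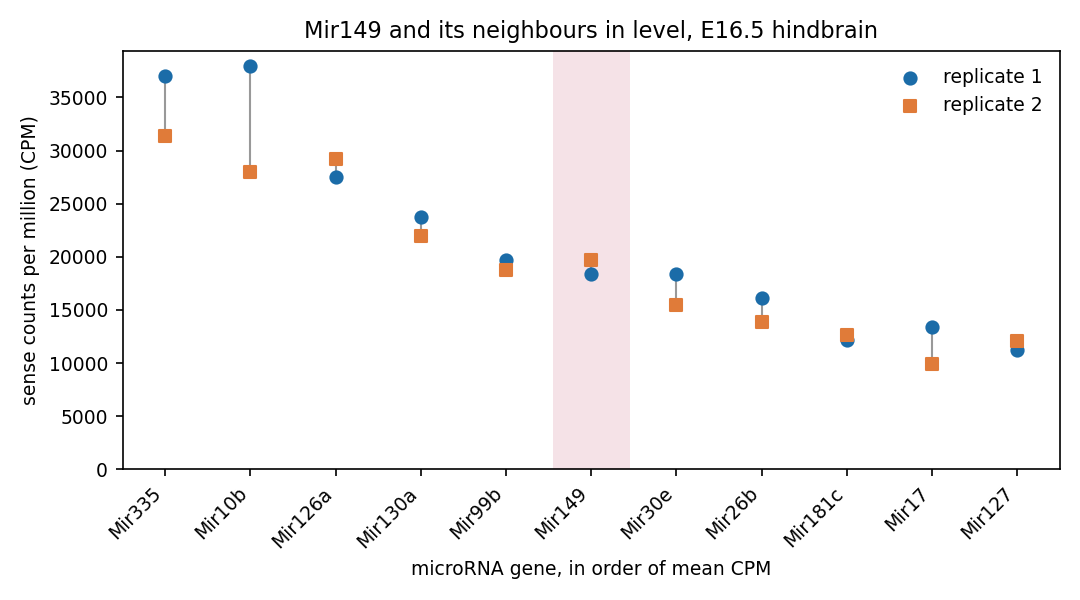
Levels of Mir149 (shaded) and of the 5 genes next above and next below it by mean level, in CPM on an axis that starts at 0. Circles are replicate 1 and squares replicate 2, and Mir149 and Mir99b change places between the libraries.

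By distance of log2 CPM over the 2 libraries, the genes most like Mir149 in level were Mir99b at a distance of 0.12, Mir30e at 0.35, Mir130a at 0.40, Mir26b at 0.55 and Mir126a at 0.81. With 2 samples this measure says only that the levels were close. For comparison, the seeds of the nearest of these are printed in capitals beside that of miR-149-5p, and each differs from it.
miR-149-5p, chromosome 1: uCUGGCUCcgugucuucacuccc
miR-99b-5p, chromosome 17: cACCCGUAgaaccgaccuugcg
miR-30e-5p, chromosome 4: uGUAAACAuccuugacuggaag
miR-130a-3p, chromosome 2: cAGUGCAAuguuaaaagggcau
miR-26b-5p, chromosome 1: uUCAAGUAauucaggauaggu

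Mir149 changed less between the libraries than the median detected gene. Its log2 ratio of replicate 2 over replicate 1 was 0.10 (exact binomial 95% interval 0.09 to 0.11), and 101 of the 385 detected genes had a ratio nearer to 0. That number was 172 with TMM scaling and 157 with DESeq2 size factors. The median absolute ratio of detected genes was 0.19. Their median level was 150.2 CPM, against 19035 CPM for Mir149, so this comparison was not matched for level. Among the 20 most abundant genes, whose ratios on sense totals ran from -0.44 to 0.43, 4 lay nearer to 0 than Mir149. That count was not taken under the other scalings, where the ratio of Mir149 was larger.

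Mir149 was higher in replicate 2 under each scaling, while the split of the other genes went with the scaling. On sense totals the median ratio of all detected genes was -0.06, with 236 genes higher in replicate 1 and 149 higher in replicate 2, so Mir149 lay 0.16 above that median. By this distance from the median, 166 of 385 genes lay closer to it than Mir149 did. TMM scaling moved all ratios up by 0.06 and the ratio of Mir149 to 0.17, with 190 genes then higher in replicate 1 and 195 in replicate 2. With DESeq2 size factors these were 202 and 183 genes.

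**Figure D3:**
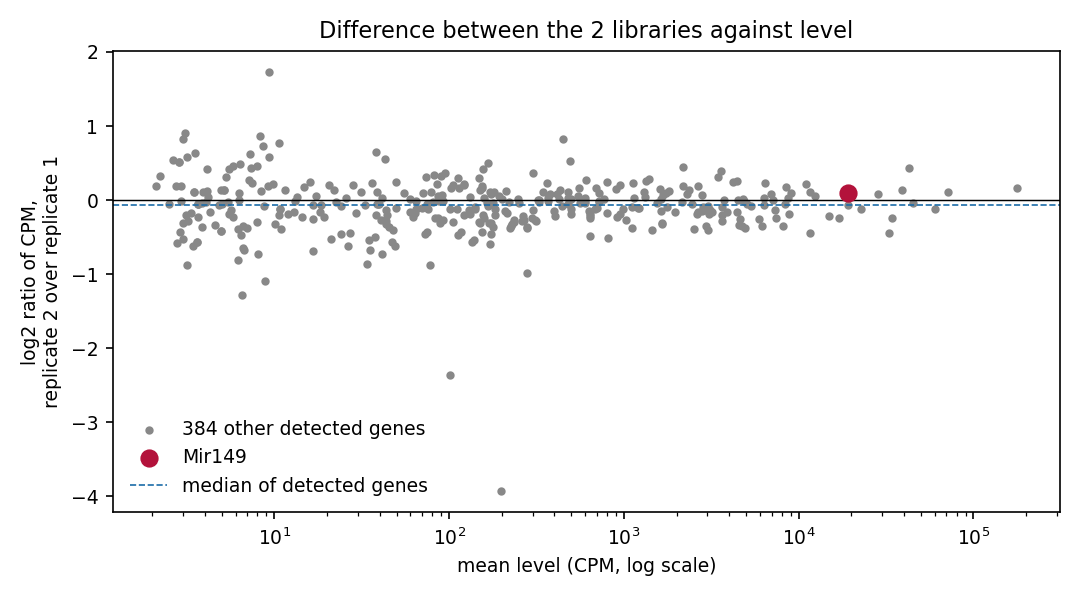
Log2 ratio of CPM in replicate 2 over replicate 1 against mean level on a log axis, for the 385 detected genes (points), with Mir149 in red and the median ratio of -0.06 as a dashed line. Mir149 lies at 0.10, inside the band of genes of similar level.

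By assigned reads Mir149 was the most abundant microRNA gene of chromosome 1. It held 31.2% of the sense counts of the 113 listed genes of this chromosome in replicate 1 and 34.5% in replicate 2. Mir26b, in an intron of the phosphatase gene Ctdsp1, followed at 14959 ± 1613 CPM and Mir30a at 8745 ± 807 CPM (SD, n = 2). Mir26b was among the genes not separated from Mir149. Of the 113 genes 25 were detected, against 385 of all 1973 listed genes.

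Among the listed genes with a known position, Mir149 has no close neighbour on the chromosome. The nearest listed microRNA gene before it, Mir6900, lies 385835 bases away on the other strand and had 18 counts in replicate 1 and 13 in replicate 2. The nearest after it, Mir6901, lies 424105 bases away and had 0 and 4 counts. The next on each side, Gm25198, Gm22955, Mir6345 and Gm24586, had 0 counts in both libraries. This is common, since 204 of the 385 detected genes had no other listed gene within 10 kb. Mir149 was the 8th of the 204 by level, after Mirlet7g, Mir10a, Mirlet7i, Mir335, Mir10b, Mir126a and Mir130a.

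Of the microRNA genes listed in glypican genes, Mir149 was the only one detected. Over all listed genes 385 of 1973 were detected, and Mir149 was chosen for its level. This is therefore no result about glypican genes. Mir717, in Gpc3 on the strand of its host, had 0 counts in both libraries, and so had Mir6239, which lies in Gpc6 on the other strand. For a gene with no count the upper limit is 0.589 CPM in the first library and 0.673 CPM in the second, from 3 counts. Mir6384, also in Gpc3, has no entry among the counted genes, so its level is not known here.

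Many microRNA genes share this intronic position. In all, 688 listed genes lie in an intron of a protein-coding gene on the same strand, and 160 of them were detected. By assigned reads Mir149 was the 6th of the 160 in mean level, at 194-fold their median of 98.1 CPM. It held 5.16% of their summed level. The 5 above it were Mirlet7g in Wdr82 at 71186 ± 3958 CPM, Mir335 in Mest at 34205 ± 4030 CPM, Mir10b in Hoxd4 at 33002 ± 7054 CPM, Mir126a in Egfl7 at 28326 ± 1204 CPM and Mir99b in Spaca6 at 19252 ± 641 CPM (SD, n = 2).

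Mir149 sits in a longer intron than the genes around it in this order. Its intron of 21249 bases compares with 564 for Mir26b, 600 for Mir126a, 897 for Mir10b, 1316 for Mir335, 3855 for Mirlet7g, 4772 for Mir30e and 10759 for Mir99b. Over the 160 detected genes the median was 9686 bases, and 56 lay in a longer intron than Mir149. First introns held 34 of the 160, and Mir149 was the second most abundant of these, after Mir99b. The median level was 95.1 CPM in first introns and 103 CPM in later ones.

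**Figure D4:**
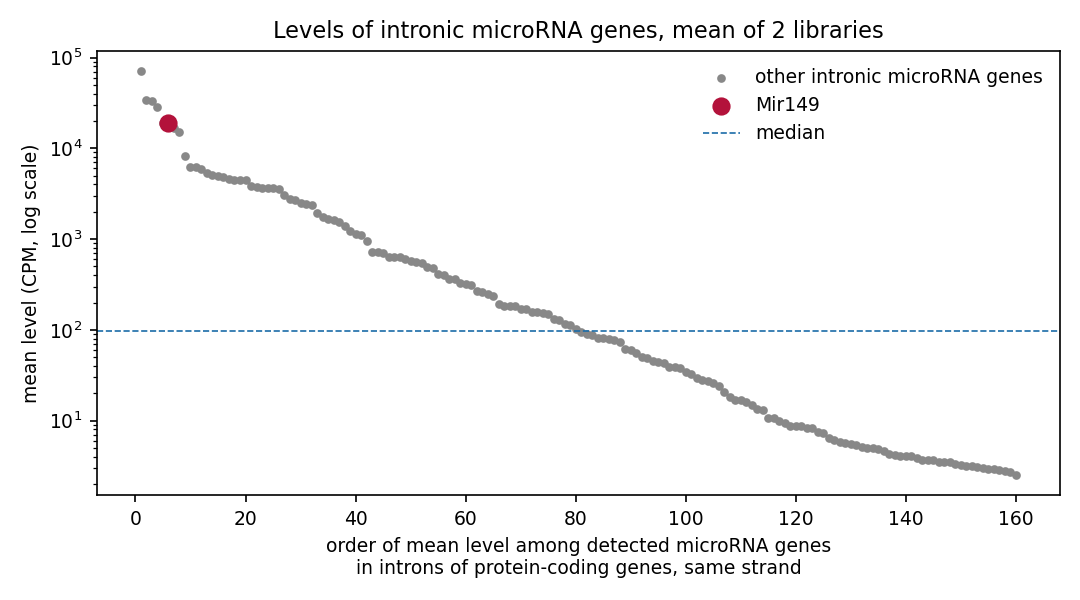
Mean level in CPM on a log axis of the 160 detected microRNA genes that lie in introns of protein-coding genes on the same strand, in order of level. Mir149 (red) is the 6th, and the dashed line is the median of 98.1 CPM.

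By reads assigned to a single gene, Mir149 had the highest level in the list of brain-enriched microRNAs. Members such as the miR-124 and miR-9 hairpins, which share a mature sequence between loci, lose multimapping reads, so the order and shares hold for the assigned reads alone. The list holds 25 genes, of which 24 were counted and 21 detected, and it held 4.38% of the sense counts in replicate 1 and 4.35% in replicate 2. Mir149 supplied 42.0% of the list in replicate 1 and 45.3% in replicate 2. The median of the 24 counted members was 438 CPM, and that of all 385 detected genes was 150.2 CPM. Mir149 is itself a member, chosen for its level, so its place at the head of the list is no test.

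Mir137, which acts in the maturation of neurons, was the next member at 8178 ± 1384 CPM. The log2 ratio of Mir149 over Mir137 was 1.23 ± 0.32 (SD, n = 2), or 2.34-fold. Mir139 stood at 3731 ± 0.720 CPM, a log2 ratio of Mir149 over Mir139 of 2.35 ± 0.07. Mir128-1, in an intron of R3hdm1 and also on chromosome 1, stood at 2666 ± 250.4 CPM.

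The hairpins of miR-124, a microRNA abundant in neurons, stood near the limit of detection by assigned reads. They share a mature sequence between loci, so their counts do not give the level of miR-124. Mir124a-1, Mir124a-2 and Mir124a-3 had 22, 11 and 1 counts in replicate 1 and 13, 3 and 2 in replicate 2, against 93653 and 87859 for Mir149. How far the multimapping reads would change the order within the list was not tested. Mir9-2, with 4 and 5 counts, was the other member below the detection minimum. The ratio of replicate 2 over replicate 1 ran from -0.57 for Mir124a-1 to 0.83 for Mir129-2 over the detected members on the log2 scale.

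By assigned reads, each of the other marker lists held a smaller share than Mir149 alone, apart from that of endothelial and smooth muscle microRNAs. Mir149 held 1.84% of the sense counts in replicate 1 and 1.97% in replicate 2. It was chosen for its level, so this order is no test and gives no measure of how pure the tissue was. The list of endothelial and smooth muscle microRNAs held 3.47% and 3.65% of the sense counts in replicates 1 and 2, most of them from Mir126a. The choroid plexus and multiciliated list held 0.931% and 1.01%, the mesenchymal list 0.449% and 0.358% and the oligodendrocyte lineage list 0.241% and 0.202%. Within the first of these 3 lists, Mir449a had a mean of 3869 CPM and Mir204 of 3588 CPM. The erythroid, leukocyte, epithelial and liver lists each held at most 0.0401% in either library. In the list of skeletal and cardiac muscle, Mir1a-1, Mir133a-1 and Mir133a-2 had 0 counts. Their mature sequences are shared between loci, so reads of them would be multimapping and these zeros do not give a level. The muscle list held 2033 counts in replicate 1 and 189 in replicate 2, mostly Mir206. Mir149 moved the other way between these libraries, by a log2 ratio of 0.10, and whether the muscle reads bear on it was not tested.

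The arms of Mir149 have no close copy among mouse hairpins. Neither arm was found in any of 1004 other RefSeq hairpins or in the transcripts of another gene among 141767 GENCODE M21 transcripts, on either strand. The closest stretch in another hairpin differed from miR-149-5p at 7 bases (in Mir214) and from miR-149-3p at 6 bases (in Mir5126). The rest of the genome was not searched.

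Several neighbours in level do have close copies. Each arm of Mir30e differs from a stretch of Mir30a at 1 base, miR-17-5p from Mir106a at 1, miR-10b-5p from Mir10a at 1, miR-130a-3p from Mir130b at 2 and miR-26b-5p from Mir26a-1 and Mir26a-2 at 2. Reads of these genes can fit more than 1 locus once they are short or carry an error, and whether this changed the order around Mir149 was not tested.

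The seed of miR-149-5p was found in no other mature microRNA among 1736, and 4 others shared bases 2 to 7. The seed of miR-149-3p was shared by 3 others, which are printed with it to show that the rest of the sequence differs.
miR-149-3p, chromosome 1: gAGGGAGGgacgggggcggugc
miR-1943-5p, chromosome 15: aAGGGAGGaucugggcaccugga
miR-6967-5p, chromosome 17: cAGGGAGGgauaaagaccagu
miR-7016-5p, chromosome 4: cAGGGAGGggagcgagaguag

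Mir1943 and Mir7016 were below the detection minimum. Mir149 had 93653 and 87859 counts in replicates 1 and 2, against 8 and 6 for Mir1943 and 9 and 3 for Mir7016. Gm27775 and Gm27740, the entries that hold miR-6967, had 0 counts in both libraries, but they hold the same mature sequence at 2 loci, so its reads would be multimapping and these zeros do not give its level. The counts of Mir149 join both arms, so the level of miR-149-3p itself is not known.

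The hairpin of Mir149 is short and rich in G and C. It is 66 bases long, against a median of 84 for the 329 detected genes with a RefSeq hairpin, and 25 of these are shorter. G and C make up 68.2% of it, and 14 of the 329 hairpins have a higher share. Those 14 were lower in level, with Mir770 the highest at 1803 CPM, then Mir874 at 321 CPM and Mir210 at 301 CPM. Mir149 was chosen for its level, and 370 of the 384 other detected genes, or 96.4%, were separated as lower. Its place above the 14 is therefore no test. Among the 20 most abundant genes with a RefSeq hairpin, that of Mir149 had the highest share of G and C, and their median was 47.5%.

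RNAfold placed the hairpin in 1 stem-loop of 25 base pairs with a minimum free energy of -36.7 kcal/mol. In it 19 of the 23 bases of the 5p arm and 19 of the 22 bases of the 3p arm were paired. Per base this energy was -0.56, against a median of -0.43 for the 329 hairpins, and 28 of them were more stable per base.

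The 3′ side of the hairpin carries a run of closely spaced G. The pattern searched was GGG, a spacer of 1 to 7 bases of any kind, and the same again until 4 runs of GGG are reached, on the hairpin strand only. It was found in Mir149 from base 42 to base 59, mostly inside the 3p arm. Of all 1005 RefSeq hairpins 15 hold it, or 1.49%, and 7 of the 329 detected, or 2.13%. By level these 7 were led by Mir149, with Mir92b next at 3092 CPM, Mir1249 at 49.7 CPM and the others at or below 9.33 CPM. Since Mir149 was chosen for its level, its lead among these 7 is no test. The pattern is a description of letters and not evidence of a structure.

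**Figure D5:**
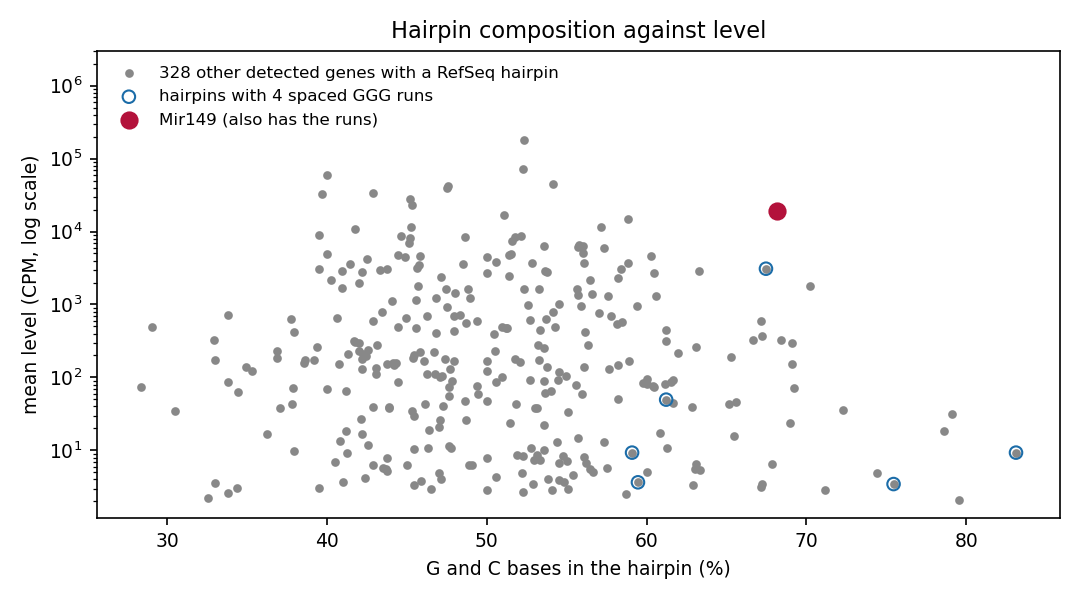
Mean level in CPM on a log axis against the share of G and C in the hairpin, for the 329 detected genes with a RefSeq hairpin. Mir149 is in red at 68.2%, and rings mark the other hairpins with 4 spaced runs of GGG. The highest of the 14 genes with a larger share of G and C stands at 1803 CPM, and Mir149 was chosen for its level.

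Seed matches were counted in the longest annotated 3′ UTR of each of 21037 protein-coding genes. GAGCCAG, the match to the seed of miR-149-5p, was present in 3100 of them, or 14.7%. CCTCCCT, the match to the seed of miR-149-3p, was present in 4122, or 19.6%. The median over 1398 different seeds was 10.3% of genes, and 1166 of these seeds had matches in fewer genes than miR-149-5p. The seeds of neighbours in level ranged widely, with 14.7% for miR-149-5p against 1.10% for miR-99b-5p, 13.8% for miR-30e-5p and 9.66% for miR-26b-5p. Only the strand of the transcript was searched, and a match of letters is not a site that was shown to be used.

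The 3′ UTR of the host gene itself holds 3 matches to the seed of miR-149-5p. They are printed with 11 bases on each side, with the match in capitals, because host and microRNA come from 1 locus (mm10, plus strand).
Gpc1 match 1, chr1:92858752-92858780: aggtcagctgcGAGCCAGtgtccccaaaa
Gpc1 match 2, chr1:92860423-92860451: atgggaggaggGAGCCAGgataccagagc
Gpc1 match 3, chr1:92860437-92860465: ccaggataccaGAGCCAGccagcctacgt

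The Gpc1 3′ UTR is 2215 bases long, and the matches begin at its bases 199, 1870 and 1884, so that matches 2 and 3 lie close together. None is followed by an A, which would extend the match. At least 3 matches to this seed were found in 110 of the 21037 genes, or 0.523%, and in 19 of the 2994 genes with a 3′ UTR of 1772 to 2768 bases, or 0.635%. In 698 of those 2994, or 23.3%, there was at least 1. The 3′ UTR of Gpc1 held 0 matches to the seed of miR-149-3p.

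The same search was made for other intronic microRNAs and their own hosts. Of 135 detected intronic genes with annotated arms and a host 3′ UTR, 36 had at least 1 match to the seed of one of their arms in the host, or 26.7%. Either arm could count, and no share was taken in genes other than the hosts. Whether hosts hold more matches than other genes was therefore not tested. Mir149 was the only one with 3, and the highest number among the others was 2, as for miR-218-5p in Slit2 and miR-326-3p in Arrb1. Messenger RNA was not measured in these libraries, so the level of Gpc1 is not known here.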

How the data were processed

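Small RNA below 30 nt from total RNA of E16.5 mouse hindbrain was sequenced in 2 libraries of 1 group. The authors deposited whole-number counts of reads for each microRNA gene, on mm10 per the labels with GENCODE M4 as annotation, per the descriptive text deposited beside the tables. Which aligner and counter made them is not given in the sources used here. A table has 3 columns of counts, for both strands and for each strand, and its 4 summary lines were left out of the totals. Of all reads, multimapping ones were 34.5% in replicate 1 and 35.1% in replicate 2, unmapped ones 15.5% and 15.2%, and those in no listed gene 2.60% and 2.78%. The first single-strand column, with 97.6% of assigned counts in each library, was taken as sense. Identifiers were matched without version to GENCODE M21 (GRCm38), which matched 1894 of 1973. Unmatched genes have no position here and are left out of the counts by chromosome, distance, intron and glypican gene.

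Levels are CPM with mean ± SD. There is 1 group, so no contrast was tested. The labels call the libraries biological replicates. Mir149, the lists and the comparisons were chosen with earlier results of these data known. The text names Mir149, the 5 genes next above and below it, the 5 nearest in level, the most abundant intronic genes, genes in glypicans, the 3 nearest listed genes on each side, sharers of a seed and the leading list members. Mir770, Mir874, Mir210, the other holders of G runs and the examples of host matches were chosen after their values were seen.

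Of 385 detected genes 329 had a RefSeq hairpin. Scaling factors came from DESeq2 1.42.0 and edgeR 4.0.16 in R 4.3.3, folding from ViennaRNA 2.7.2, and intervals from scipy 1.17.1. Tables were made with pandas 2.3.3 and numpy 2.4.6 in Python 3.11.15, and plots with matplotlib 3.10.9.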

Additional observations from a re-analysis of the deposited data

How the results depend on the processing

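Scaling factors and changed totals multiply every gene of a library by 1 number, so they cannot change the order within a library or the ratio of Mir149 to another gene, and they are no check on either. The rank was 12 with unstranded counts. Leaving out a replicate gave rank 11 to 12, and rank 5 to 6 among intronic genes, with 11 and 5 from replicate 2 alone. The level moved to 23133 CPM (2.31%) without the most abundant gene in the total and to 10843 CPM (1.08%) with multimapping reads in it, against 19035 CPM (1.90%) as reported. The log2 ratio of replicate 2 over replicate 1 was 0.17 with TMM scaling, 0.15 with DESeq2 size factors, 0.14 without the most abundant gene and 0.085 with multimapping reads, so its sign did not change. The 5 genes not separated from Mir149 became 7 at a limit of 3 SD, with Mir10b and Mir206 added, and were 5 with unstranded counts, with a minimum of 5 or 50 counts or none, and with 1 CPM added before the log. With 1 library left, neither the ratio nor the separation has a value. No paired analysis was possible because there is 1 group. The binomial interval of Mir149 was narrower in each library than the difference between the libraries, but PCR copies were not told apart.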
